A study of Mus musculus with 5 samples.

Results

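Odorant receptors of the main olfactory epithelium signal through a heterotrimeric G protein, and 8 mouse genes of that machinery were followed here in olfactory sensory neurons (OSNs) at rest and after odorant exposure. They are the α subunit genes *Gnal*, *Gnas* and *Gnao1*, the β subunit genes *Gnb1* and *Gnb2*, the γ subunit gene *Gng13*, and *Ric8a* and *Ric8b*, which encode chaperones of α subunits. They were chosen by gene symbol and make up 8 of the 55411 genes in the count tables. All 8 had counts in every library, and 7 passed the filter on low counts, *Gnas* being the exception.

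In an OSN, an odorant-bound receptor exchanges the nucleotide on Gαolf, the product of *Gnal*, which then activates adenylyl cyclase 3, and the cyclic AMP produced opens a cation channel built from CNGA2, CNGA4 and CNGB1. Gαolf works together with a βγ dimer, for which Gβ1 and Gγ13 are the subunits known in these neurons. Gαs, the product of *Gnas*, is the close relative of Gαolf used in most other cells and in OSN precursors, and Gαo, the product of *Gnao1*, is abundant in neurons at large and in one class of vomeronasal neurons. RIC-8B assists the folding of Gαs and Gαolf, while RIC-8A serves the other α subunit families.

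The study asked how the transcriptome of an OSN population changes once its receptor meets its agonist. GFP-positive OSNs were sorted from the main olfactory epithelium of 7-week-old male mice homozygous for Olfr151 tm26Mom, an allele in which *Olfr151* carries an IRES-tau-GFP cassette, and this allele was shared by both conditions. For 5 h, the mice received either 5% acetophenone in DMSO (exposed) or the DMSO solvent by itself (control, at rest). Control pools 1, 2 and 3 and exposed pools 1 and 3 were available, each one combining cells of 4 mice. Exposed pool 2 was not analysed here. Values are listed by pool number, first for the 3 control pools and then for the 2 exposed pools. Each pool held 200 cells by the sample labels and the published methods, whereas the extraction protocol in the labels gives 400. Each pool was sorted for neurons of a single receptor identity, so the values do not stand for other OSNs.

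Library totals lay between 42780403 and 49527380 counts, and 3 counts corresponded to 0.0607 to 0.0703 CPM, a count scaled by the total of all gene counts in a library. The sorted cells matched their label. Summed over 7 mature OSN markers, *Omp* and *Stoml3* among them, TPM, which also corrects for exon length, was 65040, 73070 and 68880 at rest and 53020 and 52620 after exposure. Of the 4 vomeronasal genes listed, *Trpc2*, *Vmn1r1* and *Vmn2r1* had 0 counts in every library. The fourth, *Gnai2*, had 277, 261 and 679 counts at rest and 759 and 493 after exposure. Both exposed sums of the mature markers were below all control sums. With edgeR, 4 of the 7 genes fell, against 1.85% of all genes tested. These were the channel genes *Cnga2*, *Cnga4* and *Cngb1* and *Rtp1*, a receptor transport protein with a log2 fold change of -1.07 ± 0.13 (SE) and an edgeR adjusted p-value of 0.0099. *Stoml3*, which had the highest mean TPM of the list, did not fall, with overlapping pools and a log2 fold change of 0.09 ± 0.10 (SE). The part of this list in the results on the members was not tested. In other marker lists the pools varied. The 4 erythroid genes, all of which had counts, summed to 1448, 506 and 56.5 TPM at rest and to 60.6 and 26.5 TPM after exposure. The 7 immune genes summed to between 38.7 and 311 TPM in control pools and to 280 and 125 TPM in exposed pools, and the 6 sustentacular genes to between 64.6 and 287 TPM in control pools and to 216 and 80.0 TPM in exposed pools. The 5 microvillar genes summed to 0.0347, 56.6 and 15.1 TPM at rest and to 8.82 and 4.58 TPM after exposure. The 6 basal cell genes summed to at most 3.55 TPM. Of these lists 1 erythroid, 3 immune and 3 sustentacular genes were tested and none was called, and no microvillar or basal cell gene was tested. *Ptprc*, a leukocyte marker, had 0, 54 and 1 counts at rest and 542 and 517 after exposure. *Tyrobp*, a myeloid adaptor, had 538, 123 and 67 against 1026 and 797. Neither overlapped, and exposed pools were above all control pools in 20.3% of all genes tested. Both passed the count filter only through the exposed pools. In the same list *C1qb*, with 602, 76 and 0 counts against 71 and 19, and *Aif1*, with 172, 22 and 13 against 71 and 3, had lower exposed means. Their pools overlapped and they were not tested. The part of these genes in the results was not tested either. In sorted pools, a lower number of transcripts per cell and a lower number of cells carrying them cannot be told apart.

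Ranked by TPM, the members fell into a high and a low tier (see the plot of TPM by gene). In the control pools the means were 4827 TPM for *Gnb1*, 3208 TPM for *Gng13*, 2512 TPM for *Gnal* and 2007 TPM for *Ric8b*. *Gnao1* followed with 87.0 TPM, *Ric8a* with 34.7 TPM, *Gnb2* with 3.70 TPM and *Gnas* with 0.159 TPM. The 4 leading members held ranks 17, 26, 34 and 48 among all genes by mean TPM of the control pools. Within the high tier the neighbours overlapped between pools, and each of *Gnb1*, *Gng13*, *Gnal* and *Ric8b* changed place in at least 1 control pool. In the low tier, the order *Gnao1*, *Ric8a*, *Gnb2*, *Gnas* was the same in all 5 libraries and no neighbours overlapped.

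**Figure D1:**
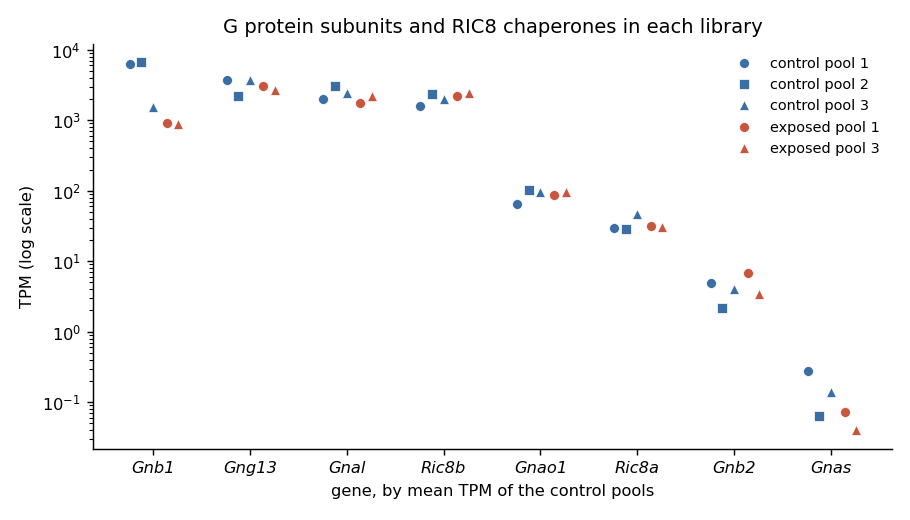
TPM of the 8 genes (y axis, log scale) in each library, ordered by the mean of the control pools, with blue symbols for control pools and red symbols for exposed pools. *Gnb1*, *Gng13*, *Gnal* and *Ric8b* lie between 883 and 6625 TPM in every library and the other 4 genes at or below 102 TPM.

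None of the 7 tested members was called between exposed and control pools with edgeR's quasi-likelihood test, in which called genes had to reach both a Benjamini-Hochberg value below 0.1 and a log2 fold change beyond 0.5 in size. Over all 10055 genes tested, 530 were called, or 5.27%, of which 344 were upregulated (3.42%) and 186 downregulated (1.85%). *Gnb1* and *Ric8b*, 2 of the 7 members, had an unadjusted p-value under 0.05, against 1924 of the 10055 genes, or 19.1%. The Wald test of DESeq2 called 1 of the 7 members, *Gnb1*, and 14.9% of all genes tested. By TMM-scaled CPM, control and exposed pools did not overlap for *Gnb1*, which was lower in the exposed pools, nor for *Gnao1* and *Ric8b*, which were higher. Such a separation was found in 40.0% of all genes tested. By TPM, the pools of *Gnao1* and of *Ric8b* overlapped. The median log2 fold change was 0.00 among the 7 members and -0.03 among all genes tested. In simulated counts the edgeR test recovered 6% of 2-fold changes, so a missing call does not show that a gene stayed unchanged.

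**Figure D2:**
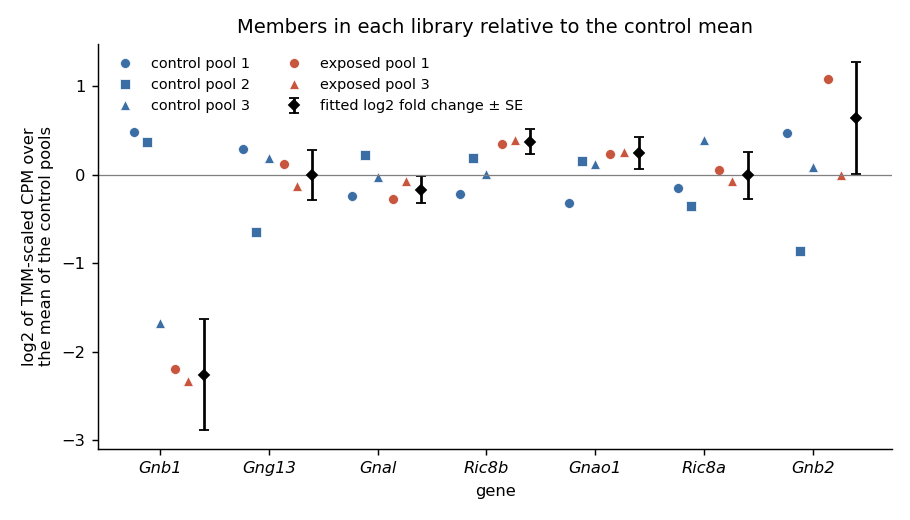
Log2 of CPM scaled by edgeR's TMM factors, after subtracting the log2 of the average control level, for the 7 tested members in each library (blue, control; red, exposed), with the fitted log2 fold change and its SE in black. *Gnb1* alone lies over 2 log2 units below the control mean in both exposed pools, and control pool 3 lies on the same side.

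Among the α subunits, *Gnal* (ENSMUSG00000024524, GRCm38 chromosome 18, 67088216 to 67226792, plus strand) was by far the most abundant. At rest it had 299164, 468578 and 368096 counts, against 287433 and 322019 after exposure. The highest library was a control pool, yet the exposed pools overlapped with the others. The level averaged 2512 ± 551 TPM at rest (SD, n = 3) and 1979 ± 277 TPM after exposure (SD, n = 2). The fitted log2 fold change was -0.17 ± 0.15 (SE), with an edgeR adjusted p-value of 0.60. Of the TPM summed over 16 α subunit genes, *Gnal* made up 86.6% to 92.9% in the control pools and 89.4% and 91.3% in the exposed pools.

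*Gnao1* (ENSMUSG00000031748, GRCm38 chromosome 8, 93809966 to 93969388, plus strand) was the second α subunit gene by its mean share of TPM, although *Gna12* was above it in control pool 1, at 7.23% against 2.83%. Its counts were 9663, 15283 and 13974 at rest and 14000 and 13864 after exposure. After scaling, 222, 309 and 302 CPM in the control pools stood against 326 and 332 CPM in the exposed pools, without overlap. The log2 fold change was 0.24 ± 0.18 (SE), with an edgeR adjusted p-value of 0.51. Scaled by spike-in counts, its estimate changed sign, to -0.030, while the median of all genes moved from -0.03 to -0.23.

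*Gnas* (ENSMUSG00000027523, GRCm38 chromosome 2, 174284320 to 174346744, plus strand) was close to the limit of detection. It had 42, 10 and 21 counts at rest, and 12 and 6 after exposure. These are above the floor of 3 counts in each library but below the filter of 140 counts, so the gene was not tested. By TPM, *Gnal* exceeded it 7260-, 47760- and 17866-fold at rest and 24414- and 54703-fold after exposure. No 50-base window of the *Gnas* transcripts occurs in a *Gnal* transcript in the GENCODE M21 annotation, so reads of that length and without errors would have been told apart. Of the exon bases of *Gnas*, 21.6% are also covered by *Nespas* and *Gm20721* on the opposite strand, each with 0 counts in all libraries. Reads in these shared bases were assigned to no gene. Divided by the remaining bases only, the mean of *Gnas* in the control pools was 0.202 TPM.

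*Gnb1* (ENSMUSG00000029064, GRCm38 chromosome 4, 155491361 to 155559269, plus strand) showed the widest spread of the tested members. Control pools 1 and 2 had 364531 and 384863 counts, control pool 3 had 87225, and exposed pools 1 and 3 had 56433 and 49961. Both exposed pools thus lay under the whole range of the controls, but control pool 3 was nearer to them than to the other controls. On the scale of TMM-scaled CPM, control pools 1 and 2 exceeded control pool 3 by 4.44- and 4.13-fold, and control pool 3 exceeded the mean of the exposed pools by 1.50-fold. Its average was 4827 ± 2857 TPM at rest (SD, n = 3) and 900 ± 23.3 TPM after exposure (SD, n = 2).

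The fitted log2 fold change of *Gnb1* was -2.26 ± 0.63 (SE), with an edgeR adjusted p-value of 0.14, and it was not called. This outcome depended on the test used and on control pool 3. Without that library the edgeR estimate was -2.66 ± 0.14 (SE) with an adjusted p-value of 0.0020, and the gene was called. DESeq2's Wald test gave -2.24 ± 0.64 (SE) with an adjusted p-value of 0.0075. None of the 4302 windows of 50 bases in its transcripts occurs in another annotated gene, and no other gene overlaps its exons. At least 2-fold higher levels in control pools 1 and 2 than in each of the other 3 libraries were found for 252 of the 10055 genes tested, or 2.51%, *Gnb1* among them. Of these 252 genes 13 were called, near the 5.27% called over all genes tested. The reverse split was found in 72 genes, or 0.716%, of which 14 were called. These counts were made after the values of *Gnb1* had been seen. The erythroid, immune and sustentacular sums given above were likewise lower in control pool 3 than in the other controls, but the microvillar sum was not. *Lhx2*, a transcription factor of the OSN lineage, was also lower there, with 16336, 21575 and 5387 counts in the control pools and 2004 and 3604 in the exposed pools. In its list of immature OSN markers, *Tubb3* too had its lowest control count in pool 3. There *Gng8* and *Gap43* had their highest, with 435, 325 and 777 and with 4624, 3936 and 4787 counts in the control pools, and the rest lay in between. The part of these sums and genes in the result was not tested.

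*Gnb2* (ENSMUSG00000029713, GRCm38 chromosome 5, 137528127 to 137533510, minus strand), which encodes a widely expressed β subunit, was sparse. Its counts were 225, 101 and 182 at rest and 337 and 155 after exposure, and the pools overlapped. With 101 counts in control pool 2, it passed the filter only through the exposed pools. The log2 fold change of 0.64 ± 0.63 (SE) had an edgeR adjusted p-value of 0.64, and it was -0.015 without exposed pool 1. Over 5 β subunit genes, *Gnb1* held 98.5%, 98.6% and 93.2% of the summed TPM in the control pools and 91.9% and 91.1% in the exposed pools. *Gnb5*, a β subunit that pairs with regulators of G protein signalling, took most of the remainder. It was measured at 88.8, 92.6 and 109 TPM in the control pools and at 73.5 and 82.6 TPM in the exposed pools.

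*Gng13* (ENSMUSG00000025739, GRCm38 chromosome 17, 25717171 to 25719406, plus strand) had 38649, 23087 and 38417 counts at rest and 33903 and 27832 after exposure. Both exposed pools lay between the lowest and the highest control pool. With 3208 ± 878 TPM at rest (SD, n = 3) and 2878 ± 228 TPM after exposure (SD, n = 2), its log2 fold change was 0.00 ± 0.28 (SE), and the edgeR adjusted p-value 1.00. It provided 97.5% to 98.4% of the TPM summed over 12 γ subunit genes in the control pools and 97.0% and 95.0% in the exposed pools. Of its 773 exon bases, 399 are shared with *Chtf18* on the opposite strand, and reads there were assigned to neither gene. Divided by the 374 remaining bases only, its mean in the control pools was 6630 TPM, the highest of the 8 members.

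The chaperone genes differed strongly in level. *Ric8b* (ENSMUSG00000035620, GRCm38 chromosome 10, 84917616 to 85018337, plus strand) had 114131, 171947 and 142057 counts at rest and 167205 and 168367 after exposure. After TMM scaling these were 2624, 3480 and 3072 CPM against 3898 and 4027 CPM, without overlap between the conditions. The log2 fold change was 0.37 ± 0.14 (SE), a 1.30-fold difference, with an edgeR adjusted p-value of 0.21, and the gene was not called. DESeq2 gave 0.39 ± 0.17 (SE) with an adjusted p-value of 0.14. With spike-in scaling the estimate was 0.11, where the median of all genes was -0.23.

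*Ric8a* (ENSMUSG00000025485, GRCm38 chromosome 7, 140856957 to 140864372, plus strand) had 2792, 2771 and 4340 counts at rest and 3190 and 2833 after exposure, with overlapping pools. The log2 fold change was -0.01 ± 0.27 (SE), with an edgeR adjusted p-value of 0.99. Parts of its exons, 11.4% of the bases, are shared with *Bet1l* and *Sirt3* on the opposite strand. By TPM, *Ric8b* exceeded *Ric8a* by 54.8-, 83.2- and 43.9-fold at rest and by 70.2- and 79.6-fold after exposure. The difference between conditions in this log2 ratio was 0.36, with overlapping pools and an exact permutation p of 0.5.

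The 250 bases before the annotated starts are shown for *Gnb1*, which had the largest difference of the members, and for *Ric8b* and *Ric8a*, the chaperone pair with such unequal levels. All are from RefSeq on GRCm38.p6 and are written 5′ to 3′ on the strand of the gene, which is the plus strand for all of them. They lie at chr4:155491111-155491360 for *Gnb1*, chr10:84917363-84917612 for *Ric8b* and chr7:140857147-140857396 for *Ric8a*. Capitals mark the half-site of the cyclic AMP response element, TGACG on either strand, which is part of the complete element TGACGTCA.
Gnb1: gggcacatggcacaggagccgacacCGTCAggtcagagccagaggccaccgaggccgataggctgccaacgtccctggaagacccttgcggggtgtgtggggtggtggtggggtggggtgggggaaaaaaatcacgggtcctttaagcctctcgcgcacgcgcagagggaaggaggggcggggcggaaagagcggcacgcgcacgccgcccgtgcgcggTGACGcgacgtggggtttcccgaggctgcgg
Ric8b: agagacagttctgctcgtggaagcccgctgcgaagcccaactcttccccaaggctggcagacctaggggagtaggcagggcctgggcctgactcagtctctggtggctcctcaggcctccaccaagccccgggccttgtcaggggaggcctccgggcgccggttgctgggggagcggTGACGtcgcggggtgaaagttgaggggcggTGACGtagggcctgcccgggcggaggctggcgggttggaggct
Ric8a: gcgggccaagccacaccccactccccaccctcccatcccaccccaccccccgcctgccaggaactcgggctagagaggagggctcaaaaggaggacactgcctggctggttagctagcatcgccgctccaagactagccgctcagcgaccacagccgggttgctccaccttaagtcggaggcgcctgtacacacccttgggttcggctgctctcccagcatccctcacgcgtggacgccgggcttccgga

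*Gnb1* and *Ric8b* each held 2 half-sites in this window and *Ric8a* none. Of 32851 windows of the same length and position in the mouse annotation, 17.8% held at least 1 half-site. Windows were given for 7 of the 8 members, all but *Gnal*, which was therefore not searched. They numbered 11, since *Gnas* and *Gng13* have several starts, and 5 of them held a half-site, belonging to *Gnas*, *Gnb1* and *Ric8b*. A pair of the *Gnas* windows overlap and share the same half-site. The complete palindromic element, TGACGTCA, was found in none of the 11 windows and in 1.55% of all windows. These matches describe letters in the windows and were not tested against the counts.

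Ratios within a library do not depend on the scaling of the libraries, and 7 were compared between conditions by a two-sided exact permutation test, for which the smallest p that 3 against 2 pools allow is 0.1. The ratio of *Gnal* to *Ric8b* by TPM was 1.24, 1.29 and 1.22 at rest and 0.811 and 0.903 after exposure. By TPM, *Gnal* was thus above its chaperone gene in all control pools and below it in both exposed pools. This order depends on the division by exon length. By TMM-scaled CPM *Gnal* was above *Ric8b* in every library, with 6700 and 7703 against 3898 and 4027 in the exposed pools. The mean log2 ratio was 0.32 ± 0.04 at rest (SD, n = 3) and -0.22 ± 0.11 after exposure (SD, n = 2), a difference of -0.54 that exceeded the spread within either condition. Its exact permutation p was 0.1, the smallest possible, and 0.35 after Benjamini-Hochberg adjustment over the 7 ratios.

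The ratio of *Gnal* to *Gnao1* by TPM behaved in the same direction, with 30.6, 30.3 and 26.1 in the control pools and 20.3 and 23.0 in the exposed pools. The log2 difference was -0.42, with an exact permutation p of 0.1 and an adjusted value of 0.35. *Gnal* to *Gnb1* was 0.314 and 0.465 in control pools 1 and 2, 1.61 in control pool 3, and 1.95 and 2.46 in the exposed pools. Here the log2 difference of 1.83 had an exact permutation p of 0.2. The log2 difference of *Gnb1* to *Gnb2* was -2.63, also with an exact permutation p of 0.2. For *Gnal* to *Gng13* and *Gnal* to *Gnas* the pools overlapped, with log2 differences of -0.21 and 0.99 and exact permutation p-values of 0.9 and 0.4. The ratios share genes and are not independent of each other, and none passed a threshold of 0.05, which this design cannot reach.

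**Figure D3:**
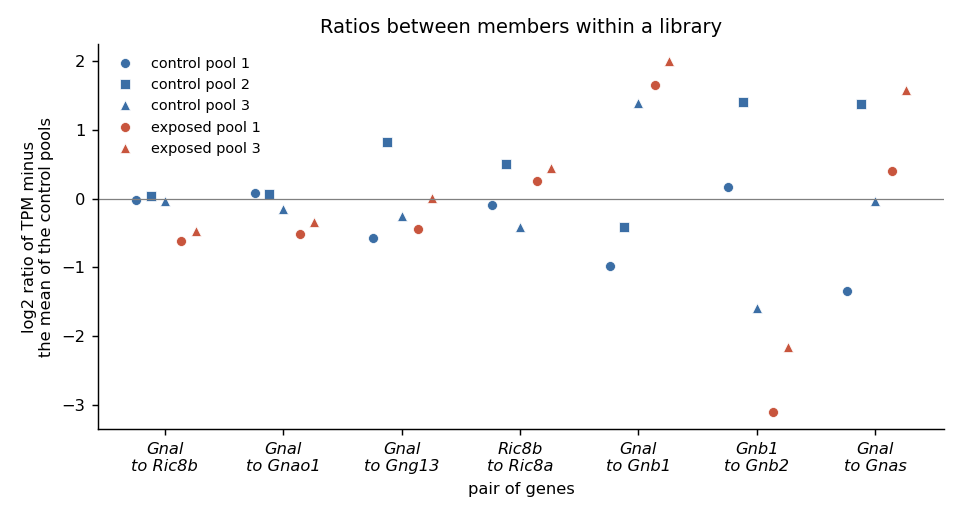
Log2 ratios of TPM between pairs of members in each library (blue, control; red, exposed), each shown as its difference from the mean of the control pools. For *Gnal* to *Ric8b* the control pools lie close together and both exposed pools below them, whereas ratios with *Gnb1* spread widely over the control pools.

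The profile of each leading member over the 5 libraries was set against those of the other 10054 genes tested, as the root mean square distance of log2 TMM-scaled CPM after centring each gene. Nearest to *Gnal* were *Dnajb14*, *Tmem87b* and *Cep350*, at distances of 0.0287, 0.0432 and 0.0443 log2 units, where the median over all genes was 0.399. For *Ric8b* they were *Kdm5a*, *Ppil4* and *Dnm1l*, at 0.0284, 0.0344 and 0.0404. *Gng13* was followed most closely by *Rpl18*, *Krtcap2* and *Ndufc1*, at 0.0408, 0.0433 and 0.0522, all with their lowest value in control pool 2. The genes nearest to *Gnb1*, at 0.142, 0.143 and 0.146, were *Pex5l*, *Csnk1g3* and *Slc44a1*. *Pex5l*, for example, had 7874 and 7221 counts in control pools 1 and 2, 1396 in control pool 3, and 947 and 865 in the exposed pools. None of these 12 genes was called, but they were picked for profiles like those of members that were not called.

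**Figure D4:**
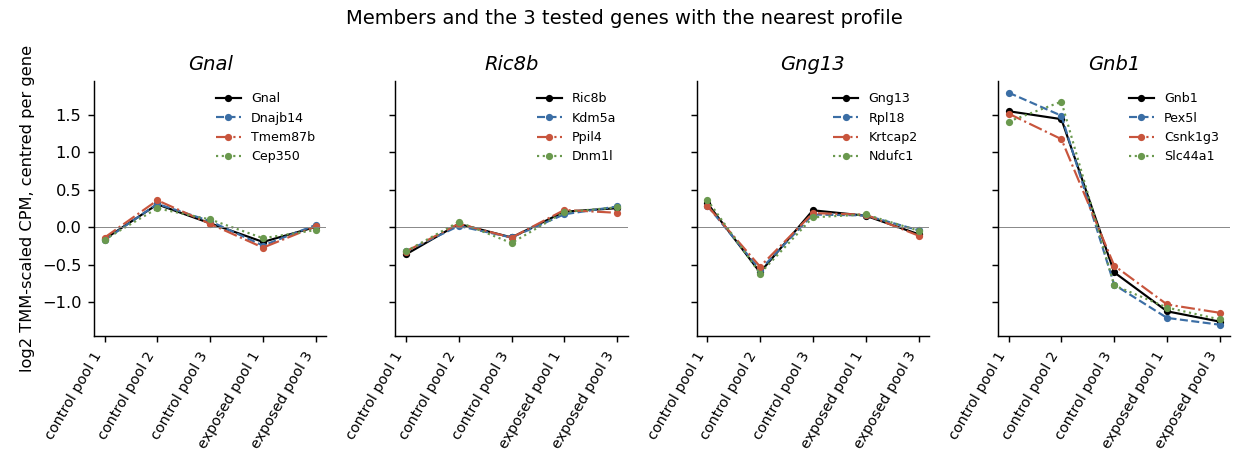
Log2 TMM-scaled CPM, centred per gene, of *Gnal*, *Ric8b*, *Gng13* and *Gnb1* (black) and of the 3 tested genes nearest to each, over the 5 libraries on the x axis. *Gnb1* and its neighbours are high in control pools 1 and 2 and low in control pool 3 and both exposed pools.

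Of the 27 other subunit genes listed, 12 were tested, and 1 rose and 1 fell with edgeR, against 3.42% and 1.85% of all genes. *Gna13*, of the same α subunit family as *Gna12*, rose from 23.2, 23.0 and 33.5 TMM-scaled CPM in the control pools to 75.8 and 64.6 in the exposed pools, with a log2 fold change of 1.40 ± 0.27 (SE) and an edgeR adjusted p-value of 0.049. *Gnaz*, a member of the inhibitory α family, fell from 33.5, 33.2 and 32.6 TMM-scaled CPM to 14.3 and 14.9, with -1.18 ± 0.28 (SE) and an edgeR adjusted p-value of 0.081. Neither was called with spike-in scaling. With a library left out, *Gnaz* was never called, and *Gna13* was called without control pool 1 or 3 but not without control pool 2 or either exposed pool. The median log2 fold change over the 12 was 0.61, against -0.03 over all genes tested. The filter affects this median. The 12 include *Gng3*, which passed the filter only through the exposed pools. They leave out *Gng10*, which was lower in the exposed pools and did not pass. *Gna12* had the highest mean TPM of the other α subunit genes only through control pool 1, with 7640 counts there and between 652 and 1178 in each of the other libraries, a log2 fold change of -2.06 ± 1.03 (SE) and an edgeR adjusted p-value of 0.34. In the remaining control pools *Gnaz* was the higher gene, with 33.4 and 31.3 TPM against 25.3 and 20.2.

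Of the 11 other γ subunit genes, *Gng3*, *Gng4*, *Gng5* and *Gng8* were tested, and edgeR called none. Their exposed pools were above all control pools, as in 20.3% of all genes tested. *Gng3*, with 136, 180 and 156 counts at rest and 266 and 177 after exposure, passed the filter only through the exposed pools. *Gng10*, with 140, 115 and 105 counts at rest and 69 and 49 after exposure, was lower in the exposed pools and did not pass it. *Gng4* had 609, 725 and 187 counts at rest and 1092 and 2779 after exposure, with a log2 fold change of 2.07 ± 0.65 (SE) and an edgeR adjusted p-value of 0.16, and DESeq2 called it. *Gng8*, a γ subunit of immature OSNs with the highest mean TPM of the other γ genes, was at 21.2, 15.7 and 38.3 TPM in the control pools and at 45.8 and 52.2 TPM in the exposed pools, with 1.13 ± 0.45 (SE) and an edgeR adjusted p-value of 0.24. Of the 6 immature OSN markers, which include *Gng8*, 1 was called, *Gap43*, a growth cone protein, with a log2 fold change of 0.94 ± 0.22 (SE) and an edgeR adjusted p-value of 0.089. In the same list *Lhx2* and *Tubb3*, a neuronal tubulin, had log2 fold changes of -2.22 and -0.60, neither of them called, and the summed TPM was 1250, 1216 and 987 at rest and 1123 and 936 after exposure.

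No gene for the assembly of the heterotrimer was called with edgeR, where 5.27% of all genes tested were called. In lists this short, the absence of a call is close to that share. CCT chaperonin and phosducin-like proteins, which fold Gβ and hand it to Gγ, were represented by 11 genes, of which 10 were tested, at log2 fold changes between -0.13 and 0.34 and a median of 0.13. *Cct5* had the highest TPM among them, with 416, 406 and 403 in the control pools and 401 and 398 in the exposed pools. By TMM-scaled CPM, the exposed pools of *Cct4*, *Cct6a* and *Cct7* were above all control pools. No tested folding gene was lower without overlap. All 9 genes for lipid modification of subunits were tested, at log2 fold changes between -1.07, for the palmitoyl transferase *Zdhhc7*, and 0.47, with a median of 0.21. *Zdhhc7* had 2359, 1740 and 1427 counts at rest and 437 and 1166 after exposure, without overlap. Exposed pools were the lower ones without overlap in 19.6% of all genes tested and the higher ones in 20.3%. *Fnta*, of the same list, was higher without overlap, with 77.5, 67.0 and 80.9 TMM-scaled CPM in the control pools and 104 and 85.7 in the exposed pools. The gene with the highest mean TPM in the control pools there was *Rce1*, whose product processes prenylated proteins, at 112, 109 and 114 in the control pools and 107 and 79.7 in the exposed pools. *Gpsm1*, the only tested gene of 4 that encode guanine nucleotide dissociation inhibitors for α subunits, had a log2 fold change of -0.46 ± 0.28 (SE) and an edgeR adjusted p-value of 0.43.

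**Figure D5:**
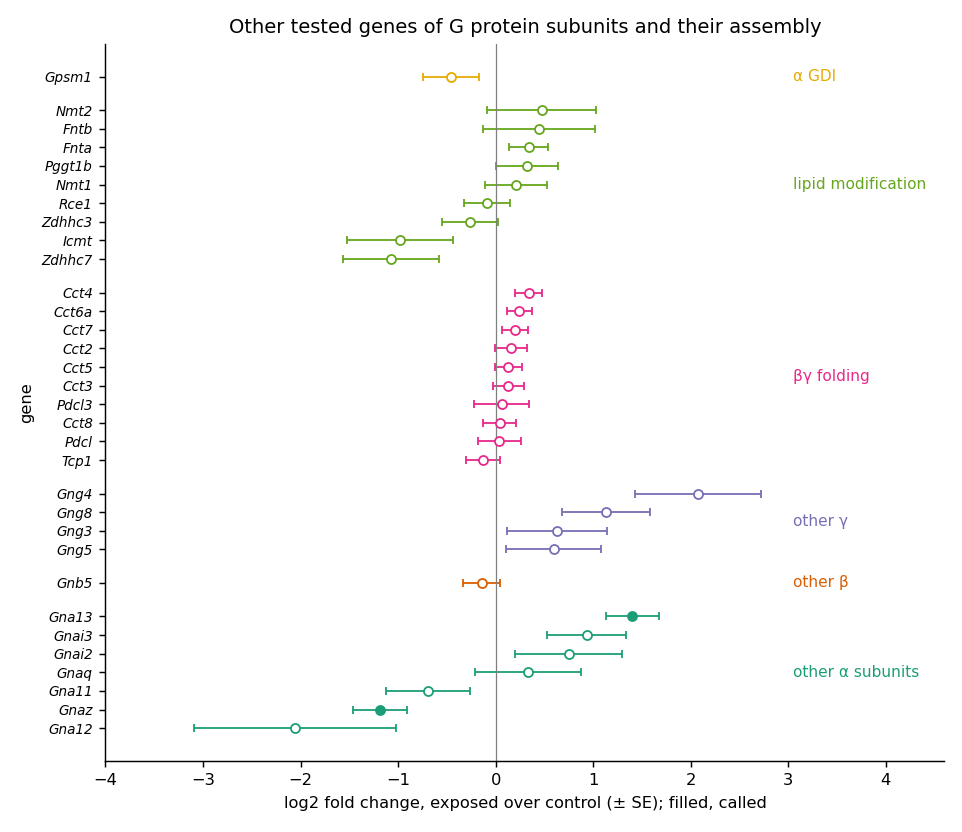
Log2 fold change (exposed over control) with its SE for the 32 tested genes of the other subunits and of their assembly, grouped by list; filled points were called. *Gna13* and *Gnaz* are the only filled points, and the folding genes lie close to 0.

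Further along the cascade, 3 of 5 genes fell and none rose with edgeR, where 1.85% of all genes fell. These 3 encode the subunits of the cyclic nucleotide-gated channel. *Cnga2* fell from 5447, 5914 and 5150 TMM-scaled CPM in the control pools to 3319 and 2869 in the exposed pools, with a log2 fold change of -0.83 ± 0.12 (SE) and an edgeR adjusted p-value of 0.019. *Cnga4* and *Cngb1* had log2 fold changes of -0.53 ± 0.12 and -0.91 ± 0.17 (SE). The receptor gene *Olfr151* had a log2 fold change of -0.47 ± 0.12 (SE), below the threshold on size, and an edgeR adjusted p-value of 0.10. *Adcy3*, the cyclase that Gαolf activates, differed between the exposed pools, with 2144 TMM-scaled CPM in exposed pool 1 and 6206 in exposed pool 3, and was at 5386, 7431 and 5999 in the control pools. Control and exposed pools did not overlap for 4 of the 5, *Adcy3* being the exception, and the exposed pools were the lower ones in these 4 and in 19.6% of all genes tested. The 7 mature OSN markers, 4 of which belong to this list, had lower sums in the exposed pools, as given above, and their part in the result was not tested. None of the 5 was called with the pool number as a replicate block, with spike-in scaling or with glmTreat. With a library left out, 0 to 3 were called: 3 without control pool 1, *Cnga2* and *Cngb1* without control pool 3, *Cnga2* alone without control pool 2, none without exposed pool 1 and *Adcy3* alone without exposed pool 3.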

How the data were processed

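FACS-sorted GFP-positive *Olfr151* neurons were profiled by bulk RNA-seq after 12 cycles of SMARTer amplification and Nextera XT tagmentation, in single reads of 50 bases without molecular identifiers. The authors mapped reads with STAR 2.7.0a on GRCm38 and deposited raw counts per gene, with exon lengths, from featureCounts 1.6.3, counting without strand and leaving out reads that map to several places or to several genes (tool versions per the submitters' processing notes). Their own tests used DESeq2 1.30.1 in R 4.0.3. Of the 55411 genes, 55144 were named through a reference table of Ensembl IDs and symbols, exon overlaps were taken from the exon coordinates in the deposited tables, and 50-base windows from GENCODE M21.

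Counts were tested in R 4.3.3 with edgeR 4.0.16 (TMM, robust glmQLFit, glmQLFTest), on all 5 libraries with condition as the only factor. Spike-in rows, 0.249% to 0.631% of counts, were left out. Genes needed 140 counts in all libraries of one condition or both, 140 being where the density of log2 counts dips before the mode of expressed genes. The Benjamini-Hochberg adjustment ran over all genes tested. TPM was computed from counts and exon lengths, and log2 distances with 0.5 CPM added. In simulated counts with known changes, the procedure recovered 129 of 200 changed genes and called 25 unchanged ones. It recovered 6% of 2-fold, 68% of 4-fold and 94% of 16-fold changes. Promoter windows and figures were made in Python 3.11.15.

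Named genes are the members, listed genes that were called or had the highest TPM of their list, and the 3 nearest profiles of 4 members. *Gng4*, *Adcy3*, *Olfr151*, *Lhx2* and the other listed genes with values were named after these had been seen. The members, lists and tests were chosen with earlier results of these data known. Alternatives were DESeq2 1.42.0 with and without apeglm 1.24.0, other scalings, glmTreat, other filters and thresholds, a block for pool numbers and each library left out. A count threshold of 58, a second dip of the density that was tried before 140 was settled, and lengths of exon bases that no other gene overlaps were added after seeing the data. The labels do not tie pools to days, and they give pools of separate mice, so p-values reflect the spread between pools.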

Additional observations from a re-analysis of the deposited data

How the results depend on the processing

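With 2 exposed pools, the spread within that condition rests on 1 difference per gene, the floor of 3 counts covers counting error only, and a pool left alone in its condition is assumed to vary like the others. Of 219 recomputed values, 177 held, meaning that fold changes and ratios kept their direction and any call and that counts stayed within 1.5 times the original. For each that did not, the cause was not tested.

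Members called numbered 1 with DESeq2, with or without apeglm, and 0 to 1 with a library left out, *Gnb1* being called without control pool 3. The log2 fold change of *Gnb1* was -2.24 with DESeq2 and -1.80 with apeglm, where it was called, and -2.66 to -1.94 with a library left out. The other G protein genes called numbered 2, and 0 with spike-in scaling and with glmTreat, 1 without the count filter and at an adjusted p of 0.05, and 0 to 1 with a library left out. DESeq2 called 3 of them. Of the 5 transduction genes, 0 were called with spike-in scaling and with glmTreat. Over all genes, 1494 were called with DESeq2, 1386 with apeglm, 143 with spike-in scaling, 202 with glmTreat, 421 without the count filter, 280 at 0.05 and 112 to 777 with a library left out.

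Whether pool numbers shared between conditions pair the samples could not be decided. Deviations from the condition means correlated at 0.05 for pools 1 and -0.08 for pools 3. With 2 exposed pools, however, the deviations of one are the mirror image of those of the other. With the pool number as a replicate block, 0 members, 0 other G protein genes and 0 of the 5 transduction genes were called, 11 genes were called in all, and the log2 fold change of *Gnb1* was -1.67.

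Signs changed for *Gnao1*, *Gng13*, *Ric8a*, *Gnb2* and the ratio of *Gnal* to *Gng13*, none of them called. *Gnao1* was at -0.030 with spike-in scaling. *Gng13* was at 0.013 with DESeq2 and with its size factors, 0.017 with apeglm, 0.024 without the count filter, 0.0073 with at least 10 counts and 0.0012 at a threshold of 58. *Ric8a* was at 0.0083 with DESeq2 and with its size factors, 0.0045 with apeglm, 0.019 without the count filter and 0.00075 with at least 10 counts. With a library left out, *Gng13* ranged from -0.23 to 0.17, *Ric8a* from -0.15 to 0.27, *Gnb2* from -0.015 to 1.05, and the log2 difference of *Gnal* to *Gng13* from -0.49 to 0.20. The order of levels held for 8 members with RPKM and for 6 with unshared exon bases, where *Gng13* passed *Gnb1*.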
